A study of Caenorhabditis elegans with 3 samples.

Results

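The genes described here carry the signals by which sperm tell the hermaphrodite gonad of Caenorhabditis elegans to mature and ovulate its oocytes. They were taken as a list of 9: the receptor gene vab-1, the sheath factor ceh-18, the gap junction genes inx-8, inx-9, inx-14, inx-21 and inx-22, the G protein gene gsa-1 and the calcium channel gene itr-1. The platform's annotation table named a spot for 7 of the 9, and each of the 7 had 1 spot with a value on every array. It named none for inx-21 or inx-22, so these were not analysed here. The 7 measured genes stood among 15119 genes tested.

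The study hybridised 3 arrays of 2 channels. Channel 2 held RNA of hermaphrodites at the last larval stage (L4) and the young adult stage, from prep 1, 2 or 3, and channel 1 held a common reference that the labels call wild type and mixed. The labels give no make-up of the reference, no strain or genotype of the staged hermaphrodites, no age in hours and no dyes, and they mark every staged sample with a code, TP06, that they do not explain. They do not say whether the preps were separate cultures, so the spread behind each p-value may be technical. Each value is a log2 ratio of the channels. A positive value was taken as higher in the staged RNA, which always lay in channel 2. That direction is likely but not stated, and every higher or lower below would turn with the opposite one. Because no array had the channels swapped, a channel effect on a spot cannot be told apart from a difference in RNA. All pairs of arrays correlated positively across genes, with Pearson's r of 0.65 to 0.68 (genes are not independent replicates).

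As background, nematode sperm secrete major sperm protein (MSP), which acts as a hormone as well as a cytoskeletal protein. It binds the Eph receptor VAB-1 on oocytes and on the smooth-muscle-like sheath cells that wrap them. Without sperm, VAB-1 and a sheath pathway that needs the POU-homeodomain factor CEH-18 hold oocytes in meiotic arrest. Gap junctions couple sheath cells to oocytes, with INX-8 and INX-9 on the sheath side and INX-14, INX-21 and INX-22 on the germline side. The stimulatory G protein alpha subunit GSA-1 raises cAMP in the sheath and is needed for maturation. ITR-1, the receptor for inositol trisphosphate (IP3), releases the calcium that drives sheath and spermatheca contraction at ovulation.

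None of the 7 genes differed from the reference by limma's test (adjusted p under the threshold of 0.05), while 20.7% of all genes tested did. Of the 7, 0 also passed at an unadjusted p under 0.05, which 33.7% of all genes did. The mean log2 ratios ran from 0.63 for inx-8 to -0.38 for gsa-1, 4 above 0 and 3 below, and their median was 0.07 against -0.04 over all genes. A missed threshold does not show that a gene was level. The 95% interval of the mean lay within a 2-fold difference either way for 5 of the 7, and reached past it for inx-8 and gsa-1. Only itr-1 had the same sign on all 3 arrays, which 52.9% of all genes had; with each array centred within supposed print blocks, itr-1 had mixed signs and gsa-1 was below 0 on all 3. In RNA of whole animals, fewer cells of a type and less RNA per cell cannot be told apart, and several of these genes are also used outside the gonad.

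**Figure D1:**
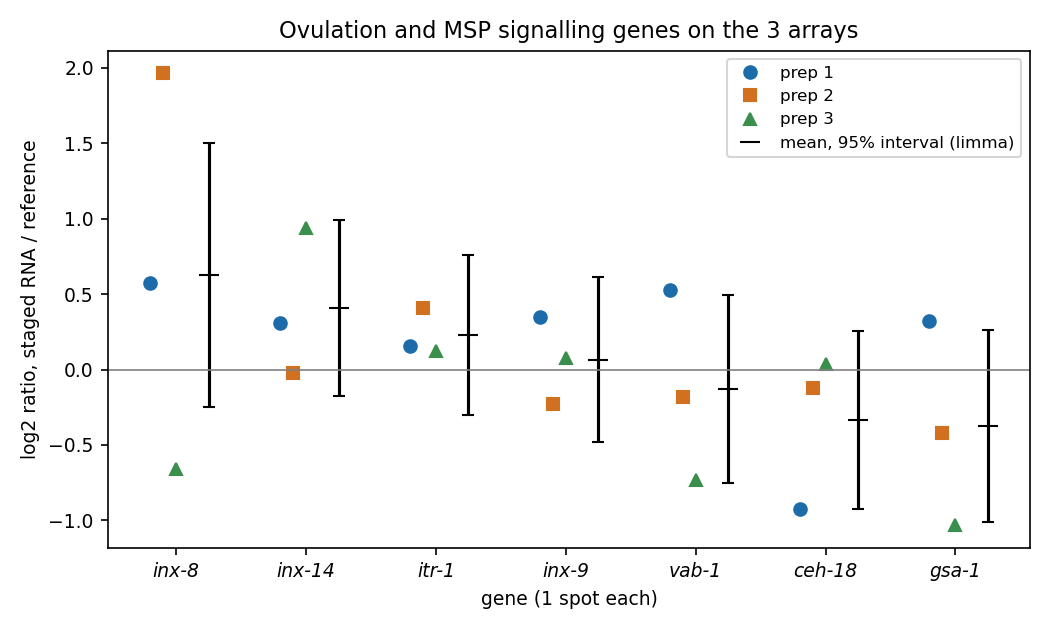
Log2 ratio of staged RNA over reference (y axis) for each of the 7 measured genes (x axis), with 1 symbol per prep and, beside them, the mean with its 95% interval from limma. Every interval spans 0, and the 3 values of inx-8 run from -0.66 to 1.96.

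The receptor gene vab-1 stood at 0.52 in prep 1, -0.18 in prep 2 and -0.73 in prep 3. Prep 1 was above the reference and the other arrays below it. The mean was -0.13 ± 0.63 (SD, n = 3; limma adjusted p = 0.797), with a 95% interval of -0.75 to 0.49. Without prep 3 the mean turned to 0.17.

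The sheath factor gene ceh-18 stood at -0.92 in prep 1, -0.12 in prep 2 and 0.04 in prep 3. It was lowest in prep 1, the array on which vab-1 was highest. The mean was -0.34 ± 0.51 (SD, n = 3; limma adjusted p = 0.425), with an interval of -0.93 to 0.25. Without prep 1 the mean was -0.04. It was the only X-linked gene of the 7. The 2274 X-linked genes tested had a median of -0.26, and ceh-18 lay at percentile 42.9 among them, against 28.3 among all genes.

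The sheath innexin gene inx-8 stood at 0.58 in prep 1, 1.96 in prep 2 and -0.66 in prep 3. Prep 2 lay far above the reference and prep 3 below it, so the arrays did not share a direction. The mean was 0.63 ± 1.31 (SD, n = 3; limma adjusted p = 0.306), and the interval of -0.25 to 1.5 was the widest of the 7. Its SD lay at percentile 98.8 among all genes. Within its array, the value lay at percentile 97.2 in prep 2 and at 15.8 in prep 3. The 10 spots with the nearest probe numbers had a median of 0.10 in prep 2, with values from -0.49 to 0.90, all below inx-8. The result hung on single preps. Without prep 3 the mean was 1.27 and passed (limma adjusted p = 0.00506) on values of 0.58 and 1.96, and without prep 2 it was -0.04.

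The other sheath innexin gene, inx-9, lies next to inx-8 among the protein-coding genes of chromosome IV in RefSeq's annotation. It stood at 0.35 in prep 1, -0.23 in prep 2 and 0.08 in prep 3. All its deposited values lay close to the reference, with a mean of 0.07 ± 0.29 (SD, n = 3, limma adjusted p = 0.886) and an interval of -0.48 to 0.61. With print blocks centred, as described below, they became 0.91, -0.02 and 0.02, with a mean of 0.31 and an SD of 0.52. Without prep 1 the mean of the deposited values was -0.07. The log2 ratio of inx-8 minus that of inx-9 was 0.23, 2.19 and -0.74 in preps 1, 2 and 3. Its mean of 0.56 was smaller than its SD of 1.49 (exact two-sided sign-flip permutation test, p = 0.75, n = 3). The genes are paralogs, and whether their spots share signal was not tested.

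The germline innexin gene inx-14 stood at 0.31 in prep 1, -0.02 in prep 2 and 0.94 in prep 3. It was close to the reference in prep 2, above it on the other arrays and highest in prep 3, where inx-8 was lowest. The mean was 0.41 ± 0.49 (SD, n = 3; limma adjusted p = 0.319), with an interval of -0.18 to 0.99. Without prep 3 the mean was 0.14. The log2 ratio of inx-14 lay below that of inx-8 on 2 arrays and above it on 1, and the difference, inx-8 minus inx-14, was 0.22 ± 1.80 (SD, n = 3). The difference inx-9 minus inx-14 was 0.04, -0.20 and -0.86 in preps 1, 2 and 3. It averaged -0.34 ± 0.47 (SD; exact two-sided sign-flip permutation test, p = 0.5, n = 3).

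The G protein gene gsa-1 stood at 0.32 in prep 1, -0.42 in prep 2 and -1.03 in prep 3. Its order over the arrays was that of vab-1, highest in prep 1 and lowest in prep 3. The mean was -0.38 ± 0.68 (SD, n = 3; limma adjusted p = 0.404), with an interval of -1.01 to 0.26. It was -0.05 without prep 3 and -0.73 without prep 1. The calcium channel gene itr-1 stood at 0.15 in prep 1, 0.41 in prep 2 and 0.13 in prep 3. Its deposited values varied least of the 7, with a mean of 0.23 ± 0.15 (SD, n = 3; limma adjusted p = 0.557), an interval of -0.30 to 0.76 and an SD at percentile 10.9 among all genes. With print blocks centred, as described below, its SD was 0.45, and gsa-1 then varied least with an SD of 0.31.

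**Figure D2:**
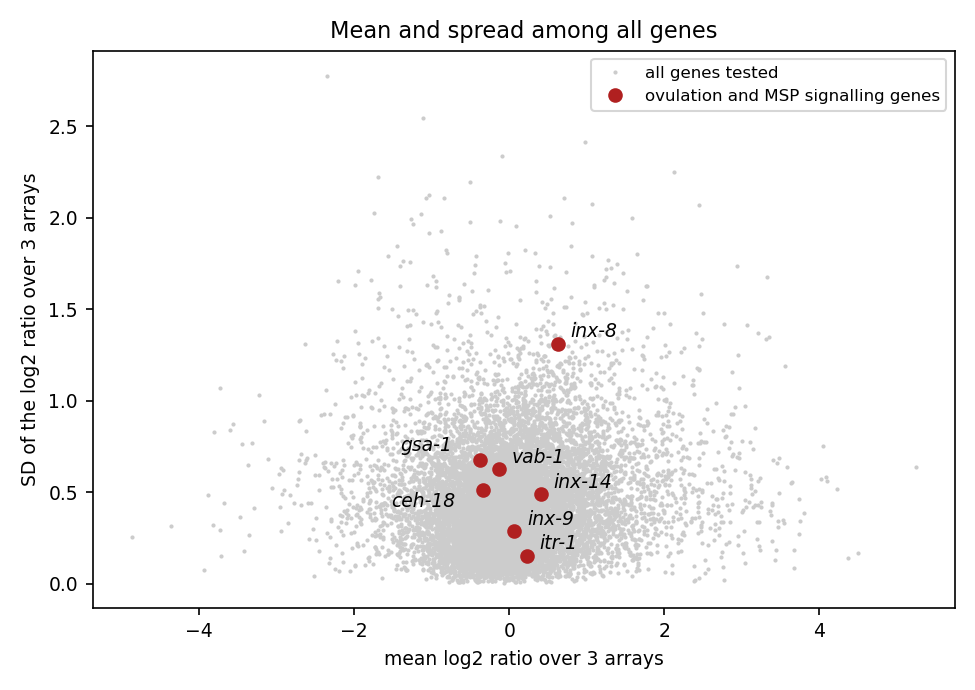
SD of the log2 ratio over the 3 arrays (y axis) against its mean (x axis) for the 15119 genes tested (grey) and the 7 measured genes (red, named). The 7 lie near the middle of the means, while inx-8, with an SD of 1.31, lies well above the median SD of all genes, 0.39.

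Ordered by mean log2 ratio, the genes ran inx-8, inx-14, itr-1, inx-9, vab-1, ceh-18 and gsa-1. No neighbours in this order differed beyond their spread. The 6 differences between neighbours had means of 0.04 to 0.22 and SDs of 0.43 to 1.80 on the log2 scale. The exact two-sided sign-flip permutation test over the 3 arrays gave p from 0.75 to 1.0, and 1.0 for every pair adjusted over the 6 pairs; with 3 arrays it cannot go below 0.25. The ends of the order, inx-8 and gsa-1, differed by 1.00 ± 1.20 (SD, n = 3), with inx-8 above on 3 of 3 arrays (exact permutation p = 0.25, the smallest possible). These ends were picked by the same means and the test could not have passed, so it does not decide whether they differ. With print blocks centred these ends stayed, while the order between them became inx-9 (0.31), itr-1 (0.29), inx-14 (0.15), ceh-18 (-0.10) and vab-1 (-0.33).

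In the deposited values, prep 1 stood apart from the other arrays for ceh-18. For gsa-1 and vab-1 the values fell in steps from prep 1 to prep 3, so prep 1 was not the only array apart. Within its array, gsa-1 lay at percentile 65.9 in prep 1 and 6.14 in prep 3. For vab-1 these percentiles were 74.6 and 13.1. Prep 1 exceeded the mean of preps 2 and 3 by 1.05 for gsa-1 and 0.98 for vab-1, at percentiles 95.7 and 94.5 of all genes, whose median was 0.03. For ceh-18 it was 0.88 lower (-0.88, percentile 9.55), and for inx-9 0.42 higher. The other 3 genes stood between -0.15 and -0.07. Each prep is 1 array, so a difference between preps has no replicate and was not tested. The array titles end in what read as dates, a different one for each prep, and what they date is not stated. Prep and such a date cannot be told apart.

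Markers of some cell types in the animal also differed between the arrays, and those of others differed little. Of 13 oocyte markers, 12 were higher in prep 1 than in the mean of the other preps, by a median of 1.64. Their medians were 1.53, -0.06 and -0.13 in preps 1, 2 and 3. Markers of neurons went the other way, with a median of -0.74 over 10 genes and 2 of the 10 above 0, and those of the epidermis more so, at -1.3 over 9 genes. Markers of the germ line before oocytes stood with the oocyte markers, at 0.58 over 10 genes with 8 of the 10 above 0, and sperm markers stood at -0.18 over 12 genes. Those of the gonadal sheath and spermatheca stood at -0.015 over 3 genes, with 1 above 0. Body wall and other muscle stood at -0.12 over 9 genes with 3 above 0, and the intestine at -0.03 over 8 genes with 4 above 0. The part of these cell types in the array differences of vab-1, gsa-1 and ceh-18 was not tested. Values of the neighbouring spots also differed between the arrays. Probe numbers fall into 32 runs of equal length that were taken as print blocks, a layout inferred and not stated. The block that holds the spot of gsa-1 had medians of 0.57, -0.04 and -0.20 in preps 1, 2 and 3. After each array was centred within such blocks, the excess of prep 1 was 0.36 for gsa-1, 0.84 for vab-1 and 0.91 for inx-9, and it was -1.11 for ceh-18. The centred values of ceh-18 rose in steps, at -0.84, 0.02 and 0.52 in preps 1, 2 and 3, so prep 1 was then not the only array apart. Centring also moved the excess of prep 1 to -0.67 for itr-1, -0.60 for inx-8 and 0.09 for inx-14. The part of position in these array differences was not tested beyond this centring.

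**Figure D3:**
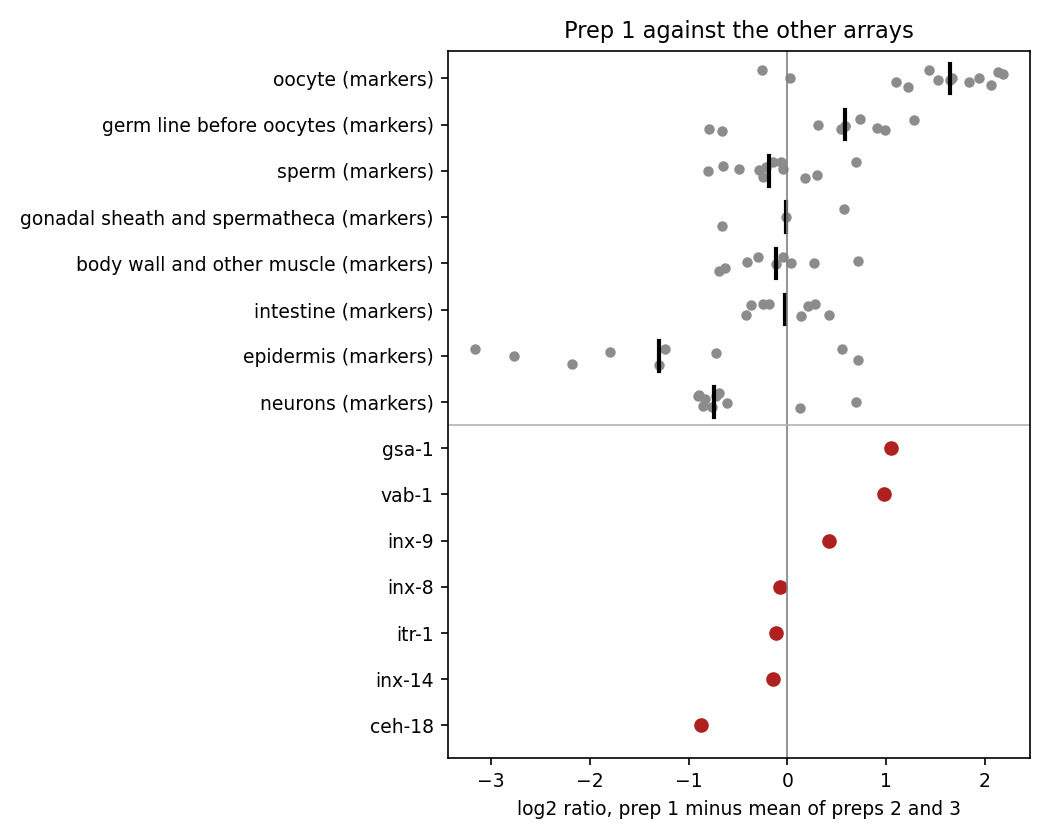
Log2 ratio in prep 1 minus the mean of preps 2 and 3 (x axis) for cell type markers (grey, 1 point per gene, black bar at the median) and for the 7 measured genes (red, 1 row each). The genes gsa-1 and vab-1 lie near 1, between the median of all genes at 0.03 and that of the oocyte markers at 1.64.

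Of 4 markers of the somatic gonad, 3 were measured, of which 1 was lower (9.37% of all genes were) and 2 did not pass. The gene sth-1 had no spot named here. The gene lim-7, a LIM homeobox gene whose promoter is used to mark sheath cells, stood at -0.12 ± 0.49 (SD, n = 3) and did not pass. The forkhead gene fkh-6, of the spermatheca and early somatic gonad, stood at 0.10 ± 0.14 and did not pass; with print blocks centred it was at -0.10. The nuclear receptor gene nhr-6, needed for the spermatheca, was lower at -0.98 ± 0.44 (limma adjusted p = 0.0218), a call lost without prep 3 (-0.74). That call was also lost when tested against a 1.5-fold difference. The log2 ratios give no absolute level, so how much sheath or spermatheca RNA the preps held is unknown.

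The rest of the pathway is given by role from lists of textbook genes. On the ligand side, 29 of 30 MSP genes measured were higher and 0 lower, where 11.3% of all genes were higher and 9.37% lower. Their medians of 2.83, 2.72 and 3.03 in preps 1, 2 and 3 lay far above the value of the receptor gene vab-1 on every array. Each log2 ratio is relative to the gene's own level in the reference, so this compares no amounts of RNA. The highest MSP genes were msp-33 at 4.10, msp-56 at 4.09, msp-57 at 3.74 and msp-55 at 3.67. The one that did not pass was msp-38 at -0.19, which was at 0.05 without prep 1 or with print blocks centred. Spots of this near-identical family may hybridise to each other's RNA and are no independent evidence.

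Of 9 other ligands, receptors and partners of this pathway, 0 were called in either direction, against 20.7% of all genes. The median of the list was -0.12. The highest was ran-1, a GTPase of nuclear transport, at 0.73 ± 0.59, and the lowest was the ephrin gene efn-4 at -0.68 ± 0.39. The gene dab-1, whose adaptor protein acts with VAB-1, stood at 0.53, -0.26 and -0.62 in preps 1, 2 and 3, near the values of vab-1 on each array. Another gene of the list, sax-3, which encodes the Robo receptor and is an MSP-domain receptor in muscle, stood at -0.60, 2.39 and -0.64. Like inx-8 it was high in prep 2 and below the reference in prep 3, but unlike inx-8 it was below the reference in prep 1. Some genes of the other lists also stood above the reference in prep 2 and below it in prep 3. Without prep 3, ran-1 passed at 0.95. The genes dab-1 and sax-3 were singled out after their values were seen.

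Of 19 other innexins, 2 were lower and 0 higher, against 9.37% and 11.3% of all genes, and the median of the 19 was -0.24. The lower ones were inx-3, of the pharynx and epithelia among other tissues, at -1.45 ± 0.36 (limma adjusted p = 0.00212) and che-7, a neuronal innexin, at -0.95 ± 0.33 (limma adjusted p = 0.0209). The call of che-7 was lost without prep 1 (-0.77) or prep 2 (-0.98) and with print blocks centred (-0.58). The highest was inx-17 at 0.83 ± 0.53, which missed the threshold (limma adjusted p = 0.0504) and passed with array weights (0.90), with the arrays scaled to one spread (0.86) and with a robust variance prior (0.83). The means of the 3 measured gonad innexins, inx-8, inx-9 and inx-14, each lay above those of all 19 but 1, inx-17. This was seen after the values were known and was not tested, and no single array showed it for all 3 genes. In prep 1, 0 of the 19 lay above inx-8, 1 above inx-9 and 2 above inx-14. In prep 2 the counts were 0, 8 and 5, and in prep 3 they were 14, 4 and 1. Without prep 2, 5 of the 19 lay above inx-8, and without prep 1, 4 lay above inx-9.

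Of 13 other genes of G protein and cAMP signalling, 0 were called in either direction (20.7% of all genes were). They ranged from egl-30, a Gq alpha subunit gene, at 0.38 ± 0.12 to the phosphodiesterase gene pde-4 at -0.67 ± 0.24. The genes of protein kinase A, which cAMP activates, stood at 0.24 ± 0.27 for the catalytic subunit kin-1 and 0.20 ± 0.30 for the regulatory subunit kin-2. The gene goa-1, whose Go alpha subunit opposes maturation signalling, stood at -0.43 ± 0.13. Medians of the list were -0.40, 0.39 and 0.04 in preps 1, 2 and 3. Prep 1 exceeded the mean of the others in 4 of the 13 genes, unlike in gsa-1. The sheath adenylate cyclase gene acy-4 had no spot named here.

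Of 11 other genes of epidermal growth factor (EGF) and IP3-calcium signalling, 1 was higher and 0 lower, against 11.3% and 9.37% of all genes. The median of the list was -0.01. The one called was crt-1, a calcium-binding chaperone of the endoplasmic reticulum, at 0.81 ± 0.25 (limma adjusted p = 0.0381). Its call was lost without prep 1 (0.90), prep 2 (0.66) or prep 3 (0.86). The EGF gene lin-3 stood at -0.01 ± 0.31 and its receptor gene let-23 at -0.01 ± 0.15. The lowest was plc-1, a phospholipase C gene that makes IP3 in the spermatheca, at -0.28 ± 0.05.

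Of 21 genes measured that serve contraction of the sheath and spermatheca, 6 were higher and 1 lower, against 11.3% and 9.37% of all genes. The median of the list was 0.37. The highest were the troponin T gene mup-2 at 2.45 ± 0.03, the basement membrane perlecan gene unc-52 at 2.02 ± 0.57, the myosin gene myo-3 at 1.27 ± 0.66 and the non-muscle myosin gene nmy-1 at 1.22 ± 0.23. Most of these genes also serve body wall muscle. Of its 9 markers measured, 6 were higher, but the lists share 4 genes, 3 of them among the higher ones of each. The lower one was spv-1, a regulator of spermatheca contraction, at -1.02 ± 0.52. Without prep 1, spv-1 was at -0.73 and did not pass, and without prep 2, myo-3 was at 0.89 and did not pass. Tested against a 1.5-fold difference, 2 genes of the list were higher and 0 lower, and myo-3, nmy-1 and spv-1 did not pass.

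Of 14 oocyte maturation genes, 2 were higher and 0 lower, against 11.3% and 9.37% of all genes. The medians of the list were 1.13, 0.46 and -0.04 in preps 1, 2 and 3. The cyclin B gene cyb-3 stood at 1.40 ± 1.04 and wee-1.3, the kinase that keeps the maturation kinase CDK-1 inactive, at 0.99 ± 0.49. Neither passed without prep 1, at 1.21 and 0.78, or without prep 2, at 1.01 and 0.92, and wee-1.3 did not pass with print blocks centred (0.78); without prep 3, 4 genes of the list passed. The lowest was the kinase gene mbk-2 at 0.07 ± 0.67, which was at -0.26 without prep 1 and at -0.02 with array weights. Prep 1 exceeded the mean of the others in 12 of the 14.

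**Figure D4:**
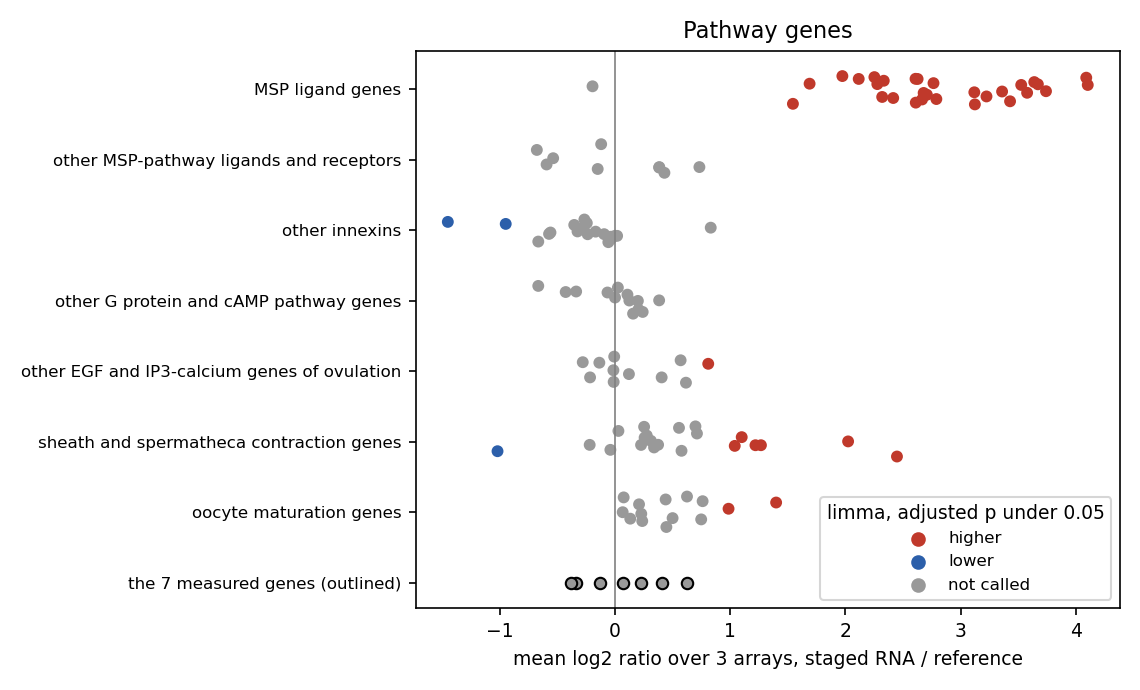
Mean log2 ratio over the 3 arrays (x axis) of every measured gene of the 7 pathway lists and of the 7 measured genes of the signalling list (outlined, bottom row), coloured by limma's call. MSP genes lie far to the right, with 29 of 30 higher, while none of the outlined genes was called.

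The genes whose pattern was most like that of the highest and the lowest of the 7 were found by Euclidean distance of the 3 log2 ratios, as a description. Nearest to inx-8 were ddo-3 at a distance of 0.36, the formin gene cyk-1 at 0.36 and the chemoreceptor gene sra-17 at 0.38, and 10 genes with a symbol lay within 0.5. All 3 were high in prep 2, at 1.79, 1.93 and 1.71, and below the reference in prep 3. Nearest to gsa-1 were ztf-25 at 0.10, pcca-1 at 0.11 and pdk-1 at 0.13, and 173 genes with a symbol lay within 0.5.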

How the data were processed

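Log2 ratios were used as the authors deposited them, 1 per spot and array for 20000 spots. For scanner, background correction and normalization no source used here gives a method. For all ratios under 0.6, 2 raised to the deposited log2 value was a whole multiple of 0.001 within 0.01 of a step, so the base is 2. Array medians were 0.04, -0.08 and -0.06 in preps 1, 2 and 3; whether arrays were centred and the direction of the ratio stay unknown. Values were missing for 73, 175 and 127 spots. No intensities were used, so dim or saturated spots were kept. Precision is limited by the number of arrays.

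Spots were named by the platform annotation with symbols updated through RefSeq gene identifiers. Of the spots, 15655 had 1 gene, 198 several and 4147 none. Spots of 1 gene were averaged, and 15119 genes with a value on all 3 arrays were tested for a mean other than 0. This used lmFit and eBayes of limma 3.58.1 in R 4.3.3, two-sided, with Benjamini-Hochberg adjustment. The reference is 1 common RNA, whose own spread is left out. Intervals are limma's, unadjusted. Print blocks were 32 equal runs of probe numbers.

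The genes and lists were chosen with earlier results of these data known, and no list was tested. The text names all members, each pathway list's highest and lowest gene, and up to 4 called genes in each direction. For the highest and lowest member it also names the 3 nearest genes. The genes kin-1, kin-2, goa-1, lin-3 and let-23 were added for their known roles, and dab-1 and sax-3 for their values. The gene test was tested on simulated data. Alternatives changed the centring, scale, print-block position, variance prior, weights, missing values, repeated spots, threshold and sign, and left out each prep.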

Additional observations from a re-analysis of the deposited data

How the results depend on the processing

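No member was called under 13 of 14 alternatives, and 1, inx-8, was called without prep 3 (range 0 to 1 over the preps left out). With the sign left as deposited, 87 of 91 recomputed member values kept their direction and their side of the threshold. The exceptions all left out a prep. These counts include alternatives that could not move a member. Each member had 1 spot with a value on every array. The alternatives for missing values, repeated spots, variance prior and threshold therefore left its mean unchanged by construction. The stricter 1.5-fold test and the turned sign could not add a call. Over the preps left out, inx-8 ran from -0.043 to 1.27, inx-9 from -0.075 to 0.21, vab-1 from -0.46 to 0.17, gsa-1 from -0.73 to -0.05, ceh-18 from -0.52 to -0.04, inx-14 from 0.14 to 0.62 and itr-1 from 0.14 to 0.28. Under the other alternatives inx-8 lay between 0.58 and 0.69, inx-14 between 0.15 and 0.44, itr-1 between 0.22 and 0.29, inx-9 between 0.02 and 0.31, vab-1 between -0.33 and -0.09, ceh-18 between -0.34 and -0.10 and gsa-1 between -0.49 and -0.34. Under these alternatives, which kept every prep, limma's lowest adjusted p of any member was 0.153, for gsa-1 with print blocks centred. With a prep left out, limma's lowest was 0.00506, for inx-8 without prep 3. With the sign turned, by construction, ceh-18 was at 0.34, gsa-1 at 0.38, vab-1 at 0.13, inx-14 at -0.41, inx-8 at -0.63, inx-9 at -0.066 and itr-1 at -0.23. Over all genes, the calls ran from 1095 to 1598 higher and from 668 to 1303 lower over the preps left out, fewest without prep 1, against 1709 and 1417; tested against a 1.5-fold difference, limma called 609 higher and 355 lower. Of the called genes named above, nmy-1, myo-3, spv-1, nhr-6, che-7, crt-1, cyb-3 and wee-1.3 did not pass this 1.5-fold test. Among pathway genes, fkh-6 turned to -0.10 and msp-38 to 0.045 with print blocks centred, and mbk-2 to -0.024 with array weights. Over the preps left out, lim-7 ran from -0.39 to 0.10, mbk-2 from -0.26 to 0.41 and msp-38 from -0.44 to 0.046. No paired analysis was possible because all 3 arrays belong to 1 group. The files give no signal over background, so a dim spot could not be told from a bright one.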
